A study of Mus musculus with 39 samples.

Results

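The 33 genes described here are targets of PPARA (peroxisome proliferator-activated receptor alpha) and genes of fatty acid oxidation in mouse liver. The members are the rows of the liver table of normalised read counts whose symbol is on a list of 33 names, and all 33 were found among its 54735 genes. A mean of at least 10 normalised reads over the 20 liver libraries was reached by 32 of them, which were tested together with all 16155 genes above that level. The member below it was Fgf21, a hormone that liver secretes in fasting, with 0.89 to 15.9 in KO PCB-153 livers, 1.85 to 7 in WT PCB-153 livers, 0.94 to 11 in KO vehicle livers and 5.01 to 50.4 in WT vehicle livers.

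The livers came from C57BL/6 mice at 4 weeks of age, of 2 genotypes and 2 exposures crossed into 4 groups of 5 libraries. KO mice carried a knockout of SXR/PXR, the nuclear receptor encoded by Nr1i2 that switches on drug metabolism genes, and WT mice were wild type. PCB-153 mice received about 54 µg/kg/day of this persistent polychlorinated biphenyl perinatally, and vehicle mice received the solvent DMSO. The groups are called KO PCB-153, WT PCB-153, KO vehicle and WT vehicle, and libraries are numbered 1 to 5 within a group as their titles number them. The labels do not give litters, the deleted exons or feeding before collection, nor whether each library is a separate animal. All p-values therefore cover only the variation among these libraries, which may be technical. In what follows, a liver means 1 library.

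PPARA is a nuclear receptor that binds fatty acids and, as a partner of the retinoid X receptor, switches on genes for their transport and breakdown, most strongly in the fasted liver. Fatty acids enter mitochondria as acylcarnitines through the carnitine shuttle and are shortened by repeated rounds of beta-oxidation, while peroxisomes shorten very long chains. Thioesterases release free acids from their coenzyme A (CoA) esters, and part of the acetyl-CoA made leaves liver as ketone bodies.

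Libraries held 15.23 to 28.65 M assigned reads. Nr1i2, the targeted gene, stood at 612 to 1155 normalised reads in KO PCB-153 livers and 1019 to 1939 in WT PCB-153 livers, ranges that overlap, and at 449 to 969 in KO vehicle livers and 1328 to 1781 in WT vehicle livers, which do not. Reads over the whole gene do not tell retained exons from an intact transcript. The labelled tissue carried its markers: 11 hepatocyte genes summed to 2177510 to 2888246 normalised reads per library. Of 8 adipocyte markers, Lep was at 0 in all 20 libraries and Adipoq did not exceed 2 normalised reads, and of 8 pancreas markers Pnlip was at 0. Other genes of both lists had reads, and 3 adipocyte and 2 pancreas markers were high enough to be tested. The adipocyte list summed to 6683 to 47476 normalised reads per library, nearly all of it Car3, which also marks liver. The pancreas list summed to 133 to 358. Fewer cells of a type and less RNA per cell cannot be told apart in these bulk samples.

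Per length, the members covered a wide range of levels. Fabp1, the liver fatty acid binding protein, averaged 108518 normalised reads per kb of exon over the 20 libraries, ahead of the mitochondrial thiolase Acaa2 at 8972.5 and the peroxisomal thiolase Acaa1b at 6497.5. Acadvl, the dehydrogenase for very long chains, followed at 2194 reads per kb, with 42.9% of its exon bases overlapped by Dvl2 on the opposite strand, so reads of both genes may be mixed if strand was not used in counting. At the low end, the thioesterases Acot1, Acot2 and Acot4 and the carnitine acetyltransferase Crat lay between 106 and 108 reads per kb, closer together than the range of any of them over the libraries. Pdk4, the kinase that shuts off pyruvate dehydrogenase, averaged 57.0 reads per kb and the peroxisomal thioesterase Acot3 46.4.

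**Figure D1:**
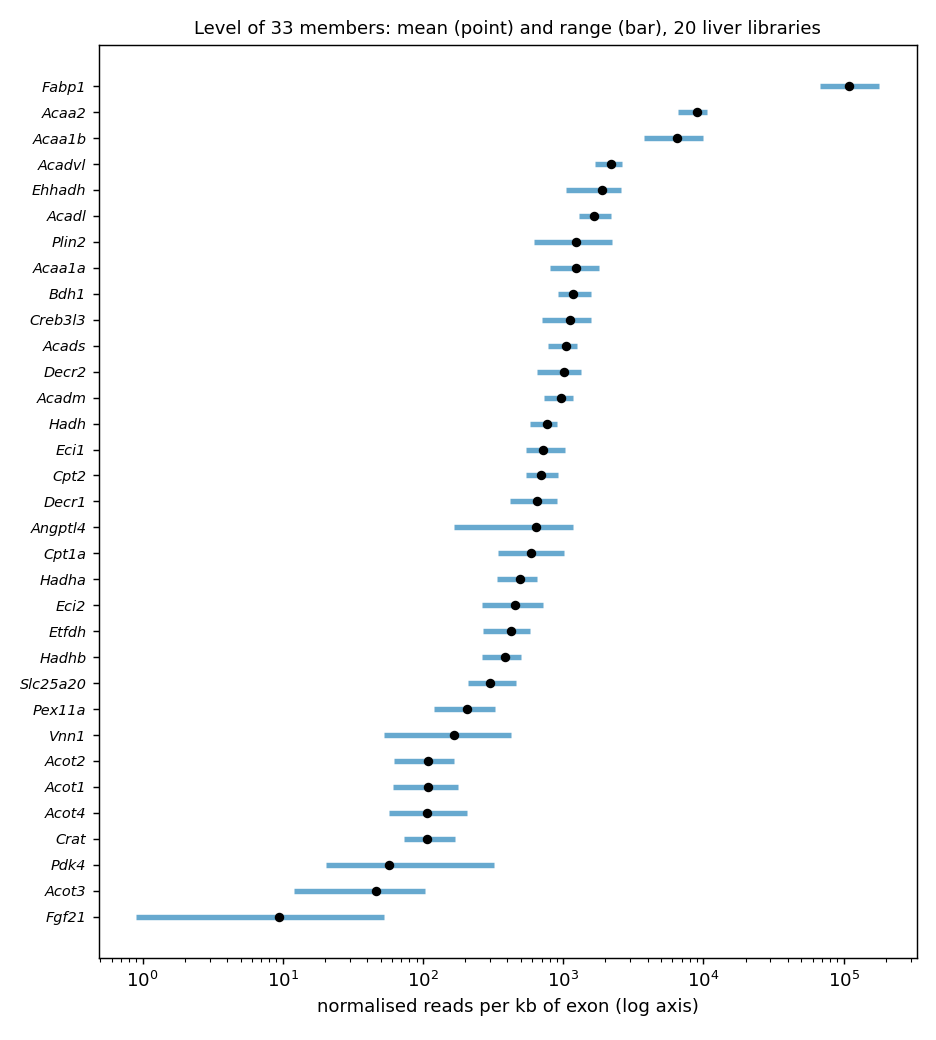
Level of the 33 members in normalised reads per kb of exon on a log axis, with the mean (point) and the range (bar) over 20 liver libraries. Fabp1 stands above all others at a mean of 108518, and Fgf21 is lowest at 9.4.

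Between genotypes, a few members differed, in both directions. Over both exposures Crat and Acot3 were higher in KO livers, and Fabp1 and the liver transcription factor gene Creb3l3 were lower. The Crat and Fabp1 calls held in all 28 alternative fits, while those of Acot3 and Creb3l3 were lost in 16 and 17 of them. The core enzymes of mitochondrial beta-oxidation had small estimated differences, and none passed the test. In KO PCB-153 against WT PCB-153 livers, 2 of 32 members rose and 0 fell at an adjusted p under 0.05, where 0.594% of all genes tested rose and 0.854% fell (1.45% in either direction). In KO vehicle against WT vehicle livers, 0 of 32 members passed, where 0.607% of all genes did. With both exposures averaged, 2 members rose and 2 fell, against 2.12% and 2.45% of all genes (4.56% in either direction). These comparisons share livers and are not independent of each other. The count in PCB-153 livers was 1 without library 2, 3 or 5 of KO PCB-153 or library 1, 2 or 4 of WT PCB-153, and 4 without library 5 of WT PCB-153. Among all genes, 124 to 209 were called in the first 6 of these fits and 334 in the last, against 234 with all libraries. The count over both exposures was 2 without library 2 or 5 of KO PCB-153, 1, 2 or 4 of WT PCB-153, 3 or 4 of KO vehicle, or 3 or 5 of WT vehicle, and 7 without library 1 of WT vehicle. Among all genes, 480 to 714 were called in the first 9 of these fits and 720 in the last, against 737 with all libraries, 467 without library 1 of KO vehicle and 1227 without library 5 of WT PCB-153.

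Counted at an unadjusted p under 0.05, 9 of 32 members passed in the PCB-153 livers, where 10.68% of all genes did, 4 of the 9 being lower in KO. In the vehicle livers 8 members passed, where 12.61% of all genes did, and all 8 were lower in KO. On the recovered reads, edgeR called 3 members and DESeq2 5 in PCB-153 livers (1.36% and 2.35% of all genes), and 2 and 8 over both exposures (4.65% and 7.38%). In vehicle livers they called 0 members (0.607% and 1.7% of all genes). Over the 33 members the median log2 fold change between genotypes was -0.04 in PCB-153 livers with 20 members lower, and -0.12 in vehicle livers with 26 lower. Among all genes tested the medians were 0.0021 and 0.0071, with 49.6% and 48.8% lower. With single libraries left out the median of the members tested ran from -0.11 (without library 1 of KO PCB-153) to 0.10 (without library 2 of KO PCB-153) in PCB-153 livers, and from -0.20 (without library 1 of WT vehicle) to -0.04 (without library 2 of WT vehicle) in vehicle livers.

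**Figure D2:**
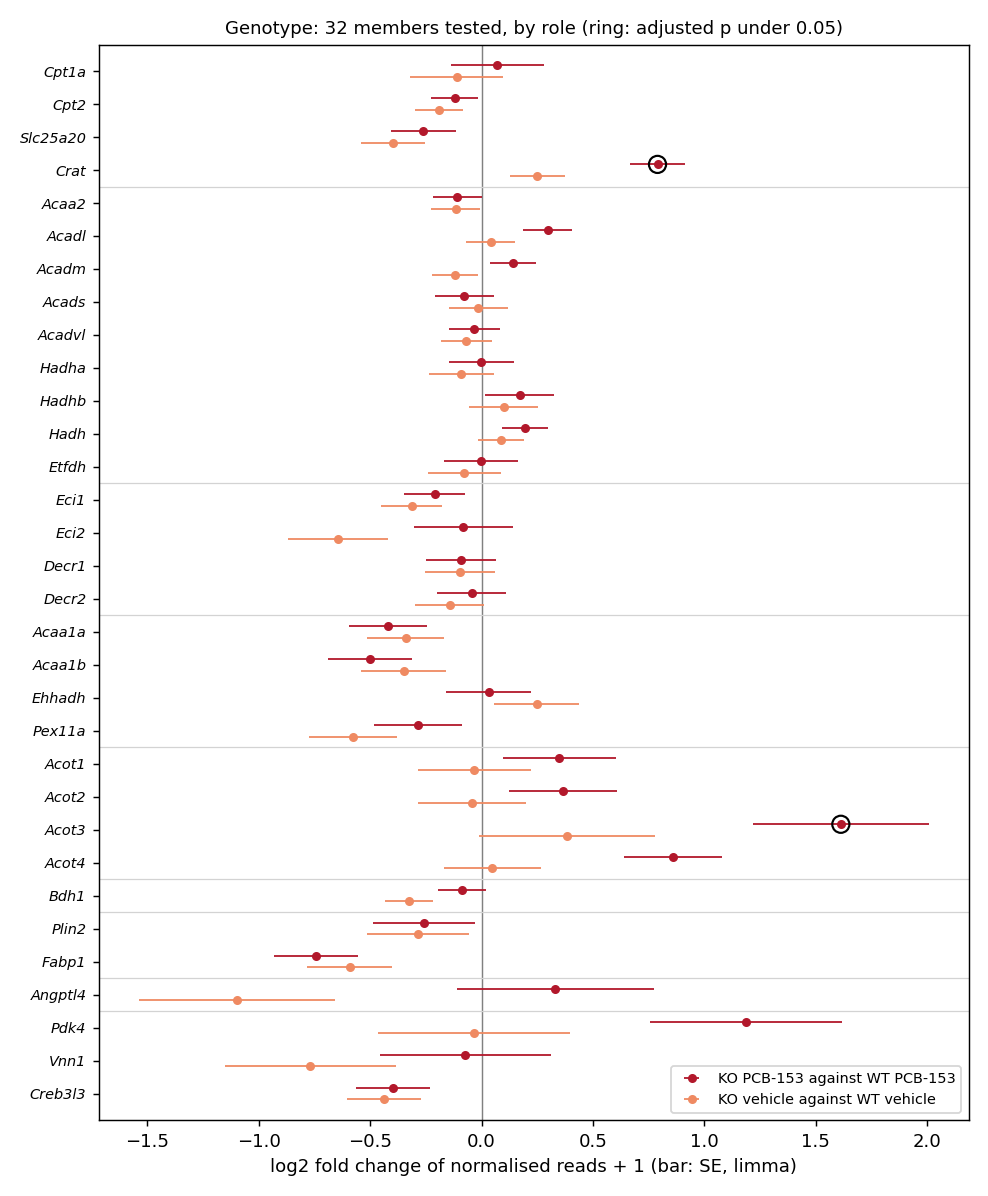
Log2 fold change of normalised reads + 1 between genotypes (horizontal axis, bar: standard error from limma, n = 5 libraries per group) for the 32 members tested, grouped by role from the carnitine shuttle at the top to regulators at the bottom. Rings mark Crat at 0.79 and Acot3 at 1.61 in PCB-153 livers, the members with an adjusted p under 0.05. No member is ringed in vehicle livers.

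Crat rose most clearly of the carnitine shuttle genes. It encodes carnitine O-acetyltransferase, which moves acetyl and other short acyl groups between CoA and carnitine, and lies on chromosome 2, 30400471 to 30415813, minus strand (GRCm38). Normalised reads of Crat were 597, 729, 740.5, 629 and 916 in KO PCB-153 livers and 396, 451, 413, 413 and 393 in WT PCB-153 livers. In the absence of PCB-153 they were 657, 593, 516, 684 and 681 in KO vehicle livers and 474, 711, 491, 469 and 503 in WT vehicle livers. Every KO PCB-153 liver lay above every WT PCB-153 liver, as for 1.21% of all genes tested, while the vehicle groups overlapped because library 2 of WT vehicle stood at 711.

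Crat averaged 722 ± 125 in KO PCB-153 and 413 ± 23 in WT PCB-153 livers (SD, n = 5 each), a log2 fold change of 0.79 ± 0.13 (SE; adjusted p in limma = 0.00104). Under vehicle the means were 626 ± 71.7 in KO and 529.7 ± 102 in WT livers (SD, n = 5 each), a log2 fold change of 0.25 ± 0.13 (SE; adjusted p in limma = 0.412). Averaged over exposures it was 0.52 ± 0.09 (SE; adjusted p in limma = 0.00107). Of the Crat exon bases 7.6% overlap Gm16323 on the opposite strand, and the labels do not say whether strand was used in counting.

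The other shuttle genes did not pass the test. Slc25a20, the translocase that carries acylcarnitines across the inner mitochondrial membrane, had 1011 to 1647 in KO PCB-153 livers and 1438 to 1646 in WT PCB-153 livers, against 1102 to 1655 in KO vehicle and 1265 to 2232 in WT vehicle livers. Its log2 fold change averaged over exposures was -0.33 ± 0.10 (SE; adjusted p in limma = 0.0697), and it passed with DESeq2 (adjusted p = 0.0412) or without library 3 of KO PCB-153, 2 of KO vehicle or 1 of WT vehicle (limma adjusted p = 0.0347, 0.0351 and 0.024). Cpt1a, the rate-limiting carnitine palmitoyltransferase of the outer membrane, gave 0.07 in PCB-153 livers and -0.11 in vehicle livers, and Cpt2, its inner-membrane counterpart, gave -0.12 and -0.19.

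The 4 acyl-CoA thioesterase genes, neighbours on chromosome 12, all had higher means in KO than in WT livers after PCB-153, and Acot3 passed the test. Acot3 (chromosome 12, 84052144 to 84060402, plus strand, GRCm38) encodes a peroxisomal enzyme that cleaves long-chain acyl-CoA. Normalised reads of Acot3 were 249.9, 249, 354, 161 and 295 in KO PCB-153 livers and 41.6, 59.3, 121, 82.2 and 152 in WT PCB-153 livers. In vehicle livers they were 90.7, 118, 123, 254 and 187 in KO and 94, 228, 92.3, 194 and 42.5 in WT. The PCB-153 groups did not overlap, the lowest KO liver at 161 standing just above the highest WT liver at 152, whereas the vehicle groups overlapped widely.

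The log2 fold change of Acot3 was 1.61 ± 0.40 in PCB-153 livers (SE; adjusted p in limma = 0.0404) and 0.38 ± 0.40 in vehicle livers (SE; adjusted p in limma = 0.714). The call in PCB-153 livers rests on single libraries. Leaving out library 1, 2, 3 or 5 of KO PCB-153 gave limma adjusted p-values of 0.0801, 0.0815, 0.118 and 0.0872, and leaving out library 1, 2 or 4 of WT PCB-153 gave 0.147, 0.133 and 0.0807. Averaged over exposures the log2 fold change was 1.00 ± 0.28 (SE; adjusted p in limma = 0.0428), and 13 of the 20 libraries ended that call when left out singly, with limma adjusted p-values of 0.0552 to 0.09. They were 1, 2, 3 and 5 of KO PCB-153, 1, 2 and 4 of WT PCB-153, 3, 4 and 5 of KO vehicle and 1, 3 and 5 of WT vehicle. Of the 50-base words in Acot3 transcripts, 19.1% occur in another gene, most of them in Gm49366, which overlaps it on the same strand.

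Acot4 (chromosome 12, 84038379 to 84048601, plus strand, GRCm38), whose mouse enzyme is a peroxisomal succinyl-CoA thioesterase, ran close to the threshold. Its normalised reads were 781, 900.3, 1379.9, 690.5 and 979 in KO PCB-153 livers and 379, 400.3, 573, 519 and 739 in WT PCB-153 livers. In vehicle livers they were 647, 617, 650.1, 813 and 679.8 in KO and 593, 1076, 552, 809 and 425 in WT. Only library 4 of KO PCB-153 lay inside the WT PCB-153 range, and the KO vehicle livers all lay inside the WT vehicle range.

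Acot4 differed between genotypes by 0.86 ± 0.22 (SE; adjusted p in limma = 0.0533) after PCB-153 and by 0.05 ± 0.22 (SE; adjusted p in limma = 0.947) under vehicle. It crossed the threshold without library 4 of KO PCB-153 (limma adjusted p = 0.0431) or without library 5 of WT PCB-153 (0.0181), and with DESeq2 (adjusted p = 0.0107). Acot1, a cytosolic enzyme, and Acot2, its mitochondrial counterpart, gave 0.35 and 0.36 after PCB-153 and -0.03 and -0.04 under vehicle, and neither passed. Acot1 shares 19.2% of its 50-base words with other genes and Acot2 27.7%, mostly with each other, so reads may be split between them.

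Fabp1, which binds fatty acids in the hepatocyte cytosol and is the most abundant member, was lower in KO livers of both exposures. On chromosome 6, 71199827 to 71205023, plus strand (GRCm38), it had 58606, 37513, 50658, 44134 and 39616 normalised reads in KO PCB-153 livers and 78959, 99433, 76337, 88209.6 and 48236 in WT PCB-153 livers. Under vehicle it had 37307, 56494, 51139.7, 37691 and 47499 in KO livers and 65611, 74293, 93920.01, 58594 and 55961 in WT livers. All but 1 WT liver of each exposure lay above all KO livers of that exposure, the exceptions being library 5 of WT PCB-153 at 48236 and library 5 of WT vehicle at 55961.

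The log2 fold change of Fabp1 averaged over exposures was -0.67 ± 0.13 (SE; adjusted p in limma = 0.00474). Within exposures it was -0.74 ± 0.19 after PCB-153 (SE; adjusted p in limma = 0.0527) and -0.59 ± 0.19 under vehicle (SE; adjusted p in limma = 0.188), neither past the threshold. The PCB-153 difference passed with edgeR (adjusted p = 0.0405), with DESeq2 (adjusted p = 0.00383), and in limma without library 1 of KO PCB-153 (adjusted p = 0.0427) or library 5 of WT PCB-153 (adjusted p = 0.00574). Plin2, a coat protein of lipid droplets, gave -0.26 after PCB-153 and -0.28 under vehicle, and neither passed.

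Creb3l3 encodes a transcription factor held in the endoplasmic reticulum membrane of hepatocytes that acts together with PPARA in fasting. Its normalised reads were 3401, 2130.2, 3665, 2585 and 2715 in KO PCB-153 livers and 3628, 3602, 4255, 4378 and 3024 in WT PCB-153 livers. Under vehicle they were 2264, 3505, 2777, 2537 and 3198 in KO livers and 2595, 4790.3, 3967, 4044 and 4089 in WT livers. KO means were lower at both exposures but the ranges overlapped, library 1 of WT vehicle standing among the KO livers. The log2 fold change averaged over exposures was -0.42 ± 0.12 (SE; adjusted p in limma = 0.0441). This call was lost with edgeR (adjusted p = 0.0502) and in 14 of 20 fits that each left out 1 library, with limma adjusted p-values of 0.0632 to 0.0947. Those libraries were 2, 4 and 5 of KO PCB-153, 1 to 4 of WT PCB-153, 1, 3 and 4 of KO vehicle and 2 to 5 of WT vehicle.

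**Figure D3:**
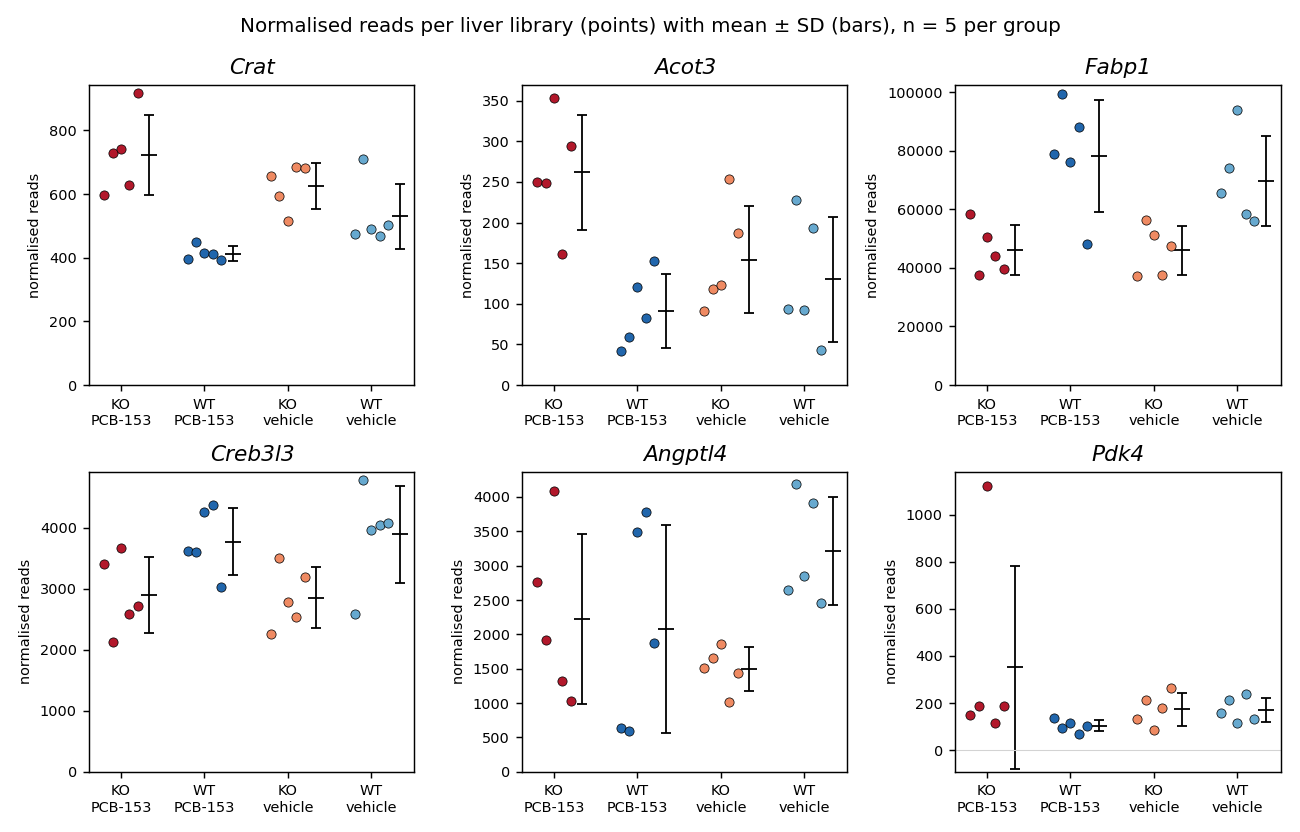
Normalised reads of 6 members in each of the 20 liver libraries (points, library 1 to 5 from left to right within a group), with the group mean and SD beside them (n = 5). Crat and Acot3 in KO PCB-153 lie wholly above WT PCB-153, Fabp1 is lower in KO groups, and Pdk4 in KO PCB-153 carries 1 library at 1122 that widens its error bar below 0.

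Promoters are shown for Fabp1, Creb3l3 and Acot3, which were called between genotypes, and for Acot4, which ran close to the threshold. No promoter sequence was found for Crat, which was also called, so it was not searched. PPARA with its partner binds direct repeats of a hexamer spaced by 1 base, called DR1, and such an element in the rat Fabp1 promoter is known to respond to PPARA. RefSeq windows of 300 bases on GRCm38.p6, from 250 before the gene start, were found for 28 of 33 members. Both strands were searched for AGGTCANAGGTCA, which contains the single hexamer AGGTCA, taking N as any base. With up to 2 mismatches it occurred in 5 of 28 members (17.9%) and in 4.4% of 27025 genes with a promoter window. With up to 3 mismatches the shares were 35.7% and 27.3%, and the single hexamer occurred in 28.6% and 18.1%. The best matches of those 5 members are printed below, with capitals at bases identical to the motif.
Fabp1: AGGcCAtAGGTCA
Acot4: cGGcCAaAGGTCA
Creb3l3: AGGggAgAGGTCA
Plin2: AGGTCAggGGTCc
Slc25a20: AGGTgAaAGGTCg

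The Fabp1 match, with 1 mismatch, was the closest of any member and starts at position -67 relative to the gene start, on the other strand. That of Creb3l3 lies before an alternative, internal gene start, at -209, and its upstream start had no match with fewer than 4 mismatches. Acot4 had its match at -13 and Acot3, with 3 mismatches, at -5, both on the other strand. Matches with 3 mismatches, like that of Acot3, are common among all genes. A match is a description of letters and no test of binding. In the windows below, read along the gene's strand, the best match is in capitals.
Fabp1 (chr6:71199629-71199928, plus strand): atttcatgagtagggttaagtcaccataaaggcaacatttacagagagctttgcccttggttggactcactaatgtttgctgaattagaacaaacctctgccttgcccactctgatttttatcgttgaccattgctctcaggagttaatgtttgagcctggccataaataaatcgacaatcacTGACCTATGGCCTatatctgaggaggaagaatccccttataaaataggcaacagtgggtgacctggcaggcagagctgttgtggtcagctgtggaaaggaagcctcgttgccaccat
Creb3l3, internal start (chr10:81092542-81092841, minus strand): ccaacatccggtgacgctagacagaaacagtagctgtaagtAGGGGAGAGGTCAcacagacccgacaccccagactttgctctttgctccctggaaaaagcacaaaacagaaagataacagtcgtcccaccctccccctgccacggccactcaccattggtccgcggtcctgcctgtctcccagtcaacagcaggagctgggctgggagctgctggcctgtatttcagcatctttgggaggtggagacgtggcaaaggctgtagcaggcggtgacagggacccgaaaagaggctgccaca
Acot4 (chr12:84038129-84038428, plus strand): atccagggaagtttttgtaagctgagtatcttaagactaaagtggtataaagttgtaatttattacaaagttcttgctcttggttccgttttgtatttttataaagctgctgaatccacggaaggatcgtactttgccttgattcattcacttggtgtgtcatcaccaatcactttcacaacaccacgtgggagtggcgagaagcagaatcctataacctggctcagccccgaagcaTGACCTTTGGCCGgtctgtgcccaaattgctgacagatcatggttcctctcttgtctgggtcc
Acot3 (chr12:84051894-84052193, plus strand): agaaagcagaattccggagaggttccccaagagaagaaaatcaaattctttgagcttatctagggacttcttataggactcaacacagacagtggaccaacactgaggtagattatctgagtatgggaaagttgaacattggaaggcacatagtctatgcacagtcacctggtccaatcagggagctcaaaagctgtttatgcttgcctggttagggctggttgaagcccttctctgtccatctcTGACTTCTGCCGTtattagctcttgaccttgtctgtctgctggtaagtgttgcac

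The 9 enzymes of mitochondrial beta-oxidation had small estimated differences between genotypes, and equality was not tested. Their log2 fold changes ran from -0.11 for Acaa2 to 0.30 for Acadl after PCB-153, and from -0.12 for Acadm, the medium-chain acyl-CoA dehydrogenase, to 0.10 for Hadhb, a subunit of the trifunctional protein, under vehicle. None passed the test. Acadl, the long-chain acyl-CoA dehydrogenase, had 4362, 3843, 4229, 3244 and 3485 normalised reads in KO PCB-153 livers and 2726, 2602, 3457, 3429 and 3413 in WT PCB-153 livers, groups that overlapped (log2 fold change 0.30 ± 0.11, SE, limma adjusted p = 0.274). Its unadjusted 95% interval of 0.07 to 0.52 lay above 0, as did that averaged over exposures, 0.0084 to 0.33. The 95% intervals under vehicle were -0.31 to 0.17 for Acadvl and -0.39 to 0.21 for Hadha, the other trifunctional protein subunit. Acads, the short-chain acyl-CoA dehydrogenase, gave -0.08 after PCB-153, and Hadh, which oxidises short hydroxyacyl-CoA, gave 0.19.

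The 4 auxiliary enzymes that deal with double bonds all had lower KO means in both exposures, and 0 passed the test. Eci1 and Eci2 are enoyl-CoA isomerases and Decr1 and Decr2 dienoyl-CoA reductases of mitochondria and peroxisomes. The widest difference was that of Eci2 under vehicle, with 1465 to 2553 in KO livers and 2241 to 3769 in WT livers, overlapping ranges (log2 fold change -0.64 ± 0.22, SE, limma adjusted p = 0.221). The Eci2 ranges after PCB-153 were 1851 to 4001 in KO livers and 1847 to 3443 in WT livers, with a log2 fold change of -0.08. Eci1 gave -0.21 after PCB-153 and -0.31 under vehicle. Decr1 gave -0.09 and -0.10, and Decr2 gave -0.04 and -0.14.

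Of the 4 peroxisomal members, 3 had lower KO means at both exposures. The thiolases Acaa1a and Acaa1b, which carry out the last step of peroxisomal beta-oxidation, averaged 4696 ± 627 and 10169 ± 2153 in KO PCB-153 livers, against 6283 ± 890.4 and 14238 ± 2098 in WT PCB-153 livers (SD, n = 5). Averaged over exposures their log2 fold changes were -0.38 ± 0.12 for Acaa1a (SE; adjusted p in limma = 0.0817) and -0.42 ± 0.13 for Acaa1b (SE; adjusted p in limma = 0.0746), neither past the threshold. Acaa1a passed without library 1 of WT vehicle (limma adjusted p = 0.00866). Acaa1b passed without that library (0.0315), library 5 of WT PCB-153 (0.043), or library 2 or 5 of KO vehicle (0.0415 and 0.0462). Both passed with DESeq2, at adjusted p-values of 0.0295 and 0.0383. Acaa1b shares 30.5% of its 50-base words with other genes, mostly Acaa1a, so their reads may be split.

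Pex11a, a membrane protein that helps peroxisomes divide, had 574, 531, 679, 381 and 441 normalised reads in KO PCB-153 livers and 487, 469.7, 774, 981 and 537 in WT PCB-153 livers. Under vehicle it had 576, 581, 736, 407 and 576 in KO livers and 688, 1046, 894, 894 and 741 in WT livers. Library 3 of KO vehicle was the only one of its group inside the WT vehicle range. The log2 fold change of Pex11a was -0.58 ± 0.20 under vehicle (SE; adjusted p in limma = 0.221) and -0.28 ± 0.20 after PCB-153 (SE; adjusted p in limma = 0.678). Averaged over exposures it was -0.43 ± 0.14 (SE; adjusted p in limma = 0.0833), and this passed with DESeq2 (adjusted p = 0.0384). Ehhadh, the peroxisomal enzyme that joins hydratase and dehydrogenase activity, ran the other way, at 0.03 after PCB-153 and 0.25 under vehicle.

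Bdh1, which interconverts the ketone bodies acetoacetate and hydroxybutyrate, had 4666, 3964, 4988, 4158 and 4684 normalised reads in KO PCB-153 livers and 4623, 4016, 5184, 5389 and 4681 in WT PCB-153 livers. Under vehicle it had 3711, 4584, 3553, 3712 and 4017 in KO livers and 4653, 6118, 4508, 5144 and 4229.6 in WT livers. Library 2 of KO vehicle was the only one of its group inside the WT vehicle range. With a log2 fold change under vehicle of -0.33 ± 0.11 (SE; adjusted p in limma = 0.208), Bdh1 was among the 3 members with the smallest p there, beside Fabp1 and Pex11a.

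Angptl4, a secreted inhibitor of lipoprotein lipase, was the member that varied most between libraries of those tested. It had 2759.6, 1913, 4089, 1328 and 1032 normalised reads in KO PCB-153 livers and 639.98, 589, 3488, 3778 and 1881 in WT PCB-153 livers. Under vehicle it had 1514, 1663, 1857, 1014 and 1433 in KO livers and 2651, 4186, 2856, 3916 and 2463 in WT livers. All KO vehicle livers lay below all WT vehicle livers, as for 1.61% of all genes tested, yet with the spread of all 4 groups the log2 fold change of -1.10 ± 0.44 did not pass (SE; adjusted p in limma = 0.3). A fit of the vehicle groups alone, whose libraries varied less, gave an adjusted p of 0.0187 in limma. The PCB-153 groups overlapped over most of their range, with a log2 fold change of 0.33.

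Pdk4 had 149.7, 187, 1122, 114 and 187 normalised reads in KO PCB-153 livers and 135, 95, 115, 70.9 and 102 in WT PCB-153 livers. Library 3 of KO PCB-153 stood far above the other 4, which lay between 114 and 187. The log2 fold change was 1.19 ± 0.43 (SE; adjusted p in limma = 0.264) and 0.62 without that library (limma adjusted p = 0.46), while DESeq2 on all livers gave an adjusted p of 0.0347. Vnn1, which encodes the pantetheinase vanin 1, gave -0.07 after PCB-153 and -0.77 under vehicle, with standard errors of 0.38, and did not pass.

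PCB-153 against vehicle asks what the exposure changed within a genotype, and here 0 of 32 members passed the test. In KO livers 0.0% of all genes tested were called by limma, and in WT livers likewise 0.0%. At an unadjusted p under 0.05, 2 members passed in KO livers and 3 in WT livers, where 9.85% and 6.69% of all genes did. DESeq2 called 63 genes in KO livers (0.39%) and 1 in WT livers (0.00619%), edgeR called 0 in both (0.0%), and neither called a member. Averaged over genotypes limma called 0.0% of all genes and 0 members, with 2 members at an unadjusted p under 0.05 where 16.53% of all genes were, while edgeR called 0 genes and DESeq2 99 (0.613%) and neither called a member. Without library 3 of WT vehicle limma called 184 genes in that comparison and still 0 members, and without any other library 0 to 2 genes.

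In WT livers 27 of 33 members had lower means after PCB-153, with a median log2 fold change of -0.15, while in KO livers 15 had lower means and the median was 0.012. Among all genes tested 51.3% and 50.5% were lower. WT vehicle holds library 2, the highest of its group for 29 of the 33, and without it the median over the members tested was -0.07 against -0.15 with it, and -0.22 without library 1 of WT vehicle. Other lists moved in the same comparison of WT livers: 16 of 19 fasting genes (median -0.42), 30 of 38 other PPARA targets (-0.27) and 13 of 13 mitochondrially encoded genes (-0.23) had lower means, while 9 of 10 Kupffer cell markers had higher means (0.19). In KO livers 11 of 19 fasting genes (-0.04) and 13 of 13 mitochondrially encoded genes (-0.23) had lower means. Of the other PPARA targets 23 of 38 had higher means there (0.11), as did 9 of 10 Kupffer cell markers (0.33). Genes of fed lipogenesis had lower means after PCB-153 in either genotype, 16 of 17 in KO livers (-0.41) and 13 of 17 in WT livers (-0.17). The part of these lists in the members' values was not tested. The thioesterases all had lower means in exposed WT livers, from -0.37 for Acot4 to -0.46 for Acot1. In KO livers Acot3 and Acot4 had higher means after PCB-153, by 0.81 ± 0.40 and 0.44 ± 0.22 (SE; adjusted p in limma = 0.503 and 0.511).

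**Figure D4:**
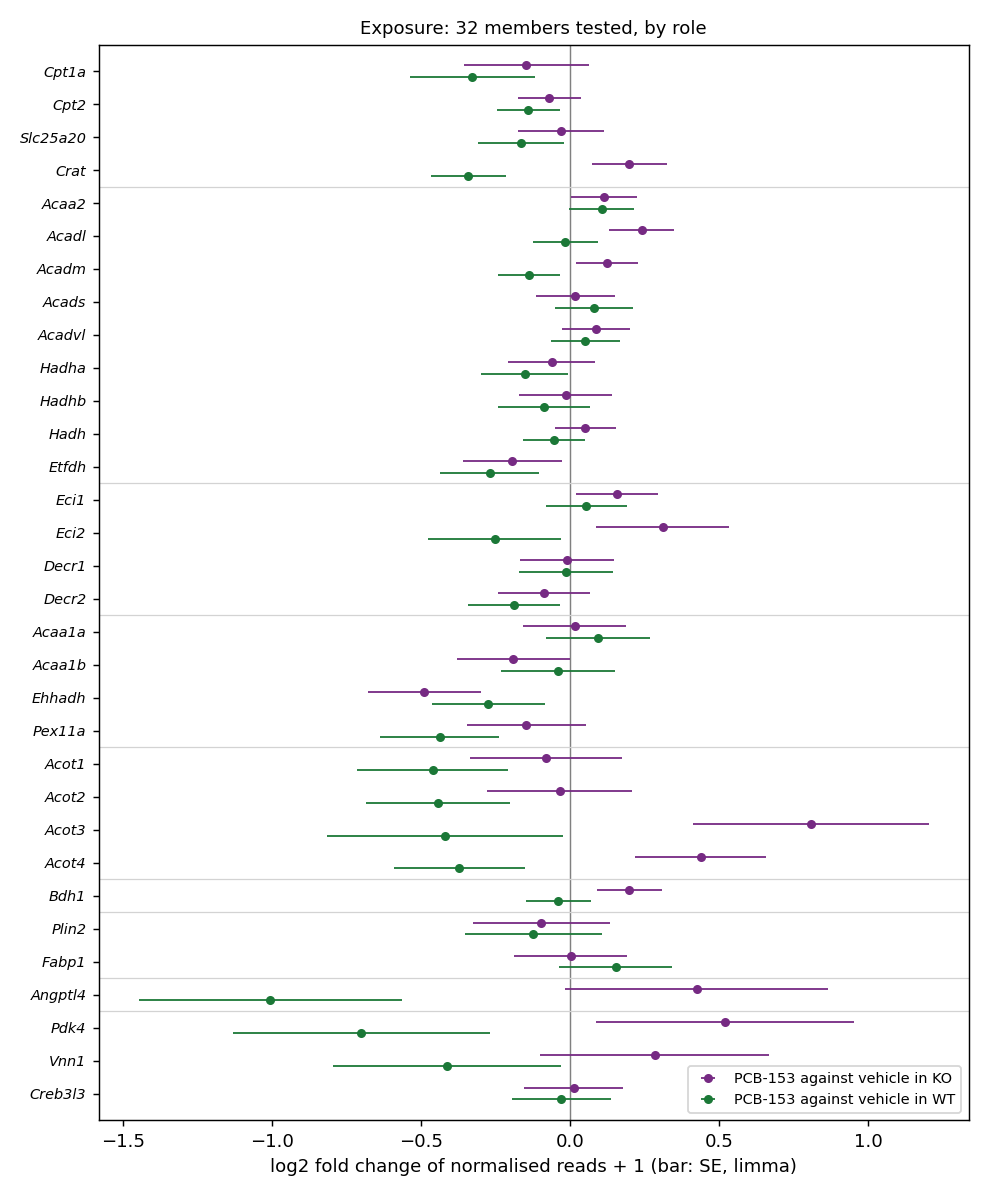
Log2 fold change of normalised reads + 1 for PCB-153 against vehicle (horizontal axis, bar: standard error from limma, n = 5 libraries per group) within KO and WT livers for the 32 members tested, ordered as in the plot of genotype differences. No member had an adjusted p under 0.05. Angptl4 in WT livers lies farthest left at -1.01 and Acot3 in KO livers farthest right at 0.81.

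The members with the smallest p in WT livers were Crat, Angptl4 and Pex11a. All exposed WT livers lay below all WT vehicle livers for Crat, as for 0.266% of all genes tested, with a log2 fold change of -0.34 ± 0.13 (SE; adjusted p in limma = 0.717). The change of Angptl4 was -1.01 ± 0.44 (SE; adjusted p in limma = 0.717), with libraries 1, 2 and 5 of WT PCB-153 below the WT vehicle range, at 639.98, 589 and 1881, and libraries 3 and 4 inside it, at 3488 and 3778. Pex11a gave -0.44 ± 0.20 (SE; adjusted p in limma = 0.717), with libraries 3 and 4 of WT PCB-153 inside the WT vehicle range.

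In KO livers the smallest p-values were those of Ehhadh, Acadl and Acot3. Ehhadh had 7191, 3119, 4880.2, 5769 and 4085 normalised reads in KO PCB-153 livers and 5977, 7448, 6049.7, 7666 and 6806 in KO vehicle livers. In WT livers it had 3976, 3681, 6089.5, 4645 and 5572 after PCB-153 and 4895, 7177, 4313, 6045 and 6517 under vehicle. Library 1 of KO PCB-153 stood high among the vehicle livers and the other 4 lay below all of them. The log2 fold change of Ehhadh was -0.49 ± 0.19 in KO livers (SE; adjusted p in limma = 0.448), -0.27 ± 0.19 in WT livers (SE; adjusted p in limma = 0.723) and -0.38 ± 0.13 averaged over genotypes (SE; adjusted p in limma = 0.229). Acadl gave 0.24 ± 0.11 in KO livers (SE; adjusted p in limma = 0.491), with 3068, 3408, 3239, 3458 and 2980.1 normalised reads in KO vehicle and 2903, 3621, 3358, 3188 and 2694 in WT vehicle livers.

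Averaged over genotypes, Pex11a and Etfdh followed Ehhadh. Etfdh, the flavoprotein that hands electrons from acyl-CoA dehydrogenases to ubiquinone, had 3451, 1998, 3229, 2760.2 and 3268 normalised reads in KO PCB-153 livers and 2496, 2409.9, 3609, 2874 and 3229 in WT PCB-153 livers. Under vehicle it had 2769.9, 4363, 2674, 3367 and 3608 in KO livers and 3043, 4359.8, 2748, 3822 and 3677 in WT livers. The groups overlapped, and the log2 fold change was -0.23 ± 0.12 (SE; adjusted p in limma = 0.319), with -0.29 ± 0.14 for Pex11a (SE; adjusted p in limma = 0.302).

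The interaction asks whether the exposure effect differed between KO and WT livers. It passed for 0 of 32 members and for 0.0% of all genes tested in limma, and edgeR and DESeq2 likewise called 0 genes. At an unadjusted p under 0.05, 4 members passed, where 2.69% of all genes did: Crat at 0.54 ± 0.18, Acot4 at 0.81 ± 0.31, Angptl4 at 1.43 ± 0.62 and Acot3 at 1.23 ± 0.56 (SE; adjusted p in limma = 1.0 each). All 4 had higher means after PCB-153 in KO livers and lower means in WT livers. The 95% interval of the interaction was 0.17 to 0.91 for Crat and -0.71 to 0.41 for Fabp1, for which KO means were lower at both exposures.

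Other genes of the same pathways were called in the genotype comparison averaged over exposures. Of 49 other fatty acid oxidation genes, 1 rose and 6 fell, where 2.12% of all genes tested rose and 2.45% fell. With each library left out in turn, 3 of the 7 calls held. Abcd2, a peroxisomal importer of very long-chain acyl-CoA, rose by 0.75 (limma adjusted p = 0.00631). Nudt7, a peroxisomal CoA diphosphatase, had a log2 fold change of -1.36 (limma adjusted p = 0.00662), and that of Acox3, a peroxisomal acyl-CoA oxidase, was -0.43 (limma adjusted p = 0.00914). Scp2, which makes peroxisomal thiolase and sterol carrier protein, gave -0.41 (limma adjusted p = 0.0313), a call lost in 10 of 20 fits that each left out 1 library (up to 0.0696).

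Of 38 other PPARA targets, 3 rose and 6 fell over both exposures, against the same 2.12% and 2.45% of all genes. With each library left out, 5 of the 9 calls held. Fitm1, which partitions triglyceride into droplets, fell in KO PCB-153 against WT PCB-153 livers with a log2 fold change of -1.51 ± 0.29 (SE; adjusted p in limma = 0.00668), as did Nudt7 at -1.80 ± 0.40 (SE; adjusted p in limma = 0.0216). The Nudt7 call was lost without library 1 or 2 of KO PCB-153 or 1 or 2 of WT PCB-153 (limma adjusted p = 0.0655, 0.0752, 0.0837 and 0.0904). Lpl, lipoprotein lipase, rose by 1.00 over both exposures (limma adjusted p = 0.00902), while Mgll, the lipase for monoglycerides, gave -0.72 (limma adjusted p = 0.0109). Fads1, a fatty acid desaturase, rose by 0.40 (limma adjusted p = 0.0144). Under vehicle, where 0.607% of all genes were called, 1 of the 38 was, the mitochondrial CoA carrier Slc25a42 at -0.52 (limma adjusted p = 0.0482). That call was lost in 13 of 19 alternatives, among them edgeR (adjusted p = 0.0578) and the fits without library 1, 3 or 4 of KO vehicle or 1, 2, 3 or 4 of WT vehicle (limma adjusted p = 0.0869 to 0.188). No gene of either list was called for exposure or for the interaction.

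The receptor gene and the hydroxylase genes Cyp4a10 and Cyp4a14, which PPARA induces, did not pass in any comparison. Ppara averaged 512 ± 129 in KO PCB-153, 526 ± 226 in WT PCB-153, 663 ± 157 in KO vehicle and 763 ± 315 in WT vehicle livers (SD, n = 5 each). Its log2 fold change for exposure was -0.47 ± 0.21 averaged over genotypes (SE; adjusted p in limma = 0.283). Cyp4a10 and Cyp4a14, whose enzymes hydroxylate fatty acids, gave 0.41 ± 0.28 and 0.83 ± 0.30 between genotypes after PCB-153 (SE; adjusted p in limma = 0.663 and 0.27), against -0.41 ± 0.28 and -0.24 ± 0.30 under vehicle (SE; adjusted p in limma = 0.56 and 0.778).

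Lists for feeding state and other cell types also differed between genotypes in their medians, some by more than the members. After PCB-153, 15 of 19 fasting genes (median log2 fold change 0.32) and 9 of 9 endothelial markers (0.18) had higher means in KO livers. So did 11 of 17 genes of fed lipogenesis (0.12), while 8 of 10 Kupffer cell markers had lower means (-0.16). Under vehicle, 13 of 17 genes of fed lipogenesis (0.53) and 8 of 9 endothelial markers (0.32) had higher means in KO livers. Lower means there were those of 9 of 10 Kupffer cell markers (-0.31), 8 of 11 hepatocyte markers (-0.15) and 11 of 19 fasting genes (-0.06).

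Few genes of these lists passed the test. Pnpla3, a droplet enzyme of the fed lipogenesis list, was higher in KO vehicle than in WT vehicle livers by 2.11 (limma adjusted p = 0.0443), a call lost with edgeR (adjusted p = 0.054) and without any single library but 5 of WT vehicle (limma adjusted p up to 0.121). Averaged over exposures, Pnpla3 and Pnpla5 rose. Mt2, a metallothionein of the fasting list, gave 3.68 after PCB-153 (limma adjusted p = 0.0461), a call lost with edgeR (adjusted p = 0.0752) and without library 1, 2, 3 or 4 of KO PCB-153 or 1, 2 or 3 of WT PCB-153 (limma adjusted p up to 0.171). The summed adipocyte list was 6683 to 24204 in KO PCB-153 livers and 27011 to 35054 in WT PCB-153 livers. Under vehicle it was 19355 to 29626 in KO livers and 28612 to 47476 in WT livers. Nearly all of it was Car3, a carbonic anhydrase that also marks liver, at 6427 to 23813 in KO PCB-153 and 26641 to 34659.7 in WT PCB-153 livers, whereas Plin1, which marks fat cells, did not exceed 1 normalised read in any library. Car3 was called lower in KO livers over both exposures, a call that held in all 28 alternatives. After PCB-153 it was also called lower, and that call was lost in 4 of 19. Over both exposures, the bile acid receptor gene Nr1h4 (-0.31), the hepatocyte gene Serpina1c (-0.34), the haem synthesis gene Alas2 (-1.11) and the elastase gene Cela1 (-0.91) fell, by their log2 fold changes. The endothelial genes Tek (0.58) and Pecam1 (0.52) and the cystathionine lyase gene Cth (0.48) rose, all with a limma adjusted p of at most 0.0481. Of these calls over both exposures, Alas2, Cela1, Cth and Car3 held with each library left out. Others were lost in some of the 20 such fits: Pecam1 in 16 (limma adjusted p up to 0.0988), Nr1h4 in 10 (0.0709), Tek in 6 (0.0646) and Serpina1c in 5 (0.0631). Among all 28 alternatives, Pecam1 was lost in 18, Nr1h4 in 12 and Serpina1c in 8. The adjusted p of Serpina1c in limma, edgeR or DESeq2 reached 0.416. Alas2 and Cth went against the lists they come from. Of 6 erythroid markers tested, 5 had higher means in KO livers over both exposures (median log2 fold change 0.41). Of 15 genes of the ATF4 stress list, 13 had lower means (-0.13). The part of all these lists in the members' differences was not tested.

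In the authors' deposited table of KO PCB-153 against WT PCB-153, made with DESeq2, 5 of 33 members had an adjusted p under 0.05, where 1.95% of its 20246 genes with an adjusted p did. The authors' deposited table gives log2 fold changes of 0.81 for Crat, 1.52 for Acot3, 0.86 for Acot4, 1.76 for Pdk4 and -0.76 for Fabp1. No member passed in the authors' deposited tables for exposure, where 1.06% of the genes with an adjusted p passed in KO livers and 0.0% in WT livers. In KO livers only 5754 genes had an adjusted p there. Acot2, Acot3, Fgf21 and Pdk4 had none, so they could not pass, with log2 fold changes of 0.76 for Acot3 and 1.02 for Pdk4. The authors' deposited table of KO vehicle against WT vehicle lists only genes past the threshold, 266 in all, and 0 members are in it. DESeq2 on the recovered reads called 1.7% of all genes in that comparison, so few members would be called at that share.

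Within groups the members moved together from liver to liver. Library 2 of WT vehicle was the highest of its group for 29 of 33 members, where it was highest for 15.6% of all genes tested, and all 33 lay above the group mean there, by a median of 0.34 on the log2 scale. Library 2 of KO PCB-153 was the lowest of its group for 21 members, where it was lowest for 27.0% of all genes, at a median of -0.28. Library 3 of WT PCB-153 was highest for 16 members and library 2 of KO vehicle for 18, where 17.1% and 23.5% of all genes were highest. The other PPARA targets deviated the same way, by a median of 0.32 in library 2 of WT vehicle and -0.16 in library 2 of KO PCB-153. In that KO library the hepatocyte markers also lay low, at a median of -0.25, and 10.11% of its reads were mitochondrially encoded, the highest share of its group. Library 1 of WT vehicle, with the members at -0.21, had the highest share of all, 12.16%, and library 3 of WT PCB-153, with the members at 0.19, the lowest, 5.35%. In library 2 of WT vehicle the share was 8.02% and the hepatocyte markers stood at 0.02. The part of these measures in the members' spread was not tested.

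**Figure D5:**
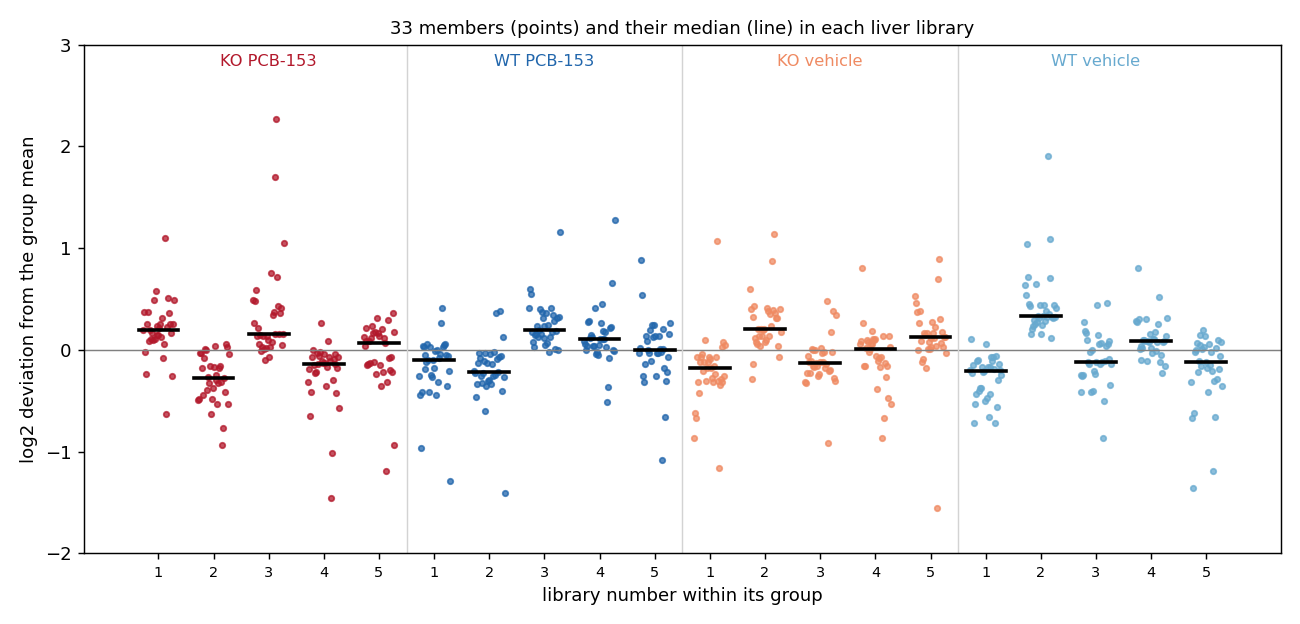
Log2 deviation of each of the 33 members (points) from its group mean, with the median of the members (line), in the 5 libraries of each group. Library 2 of WT vehicle has all members above 0 with a median of 0.34, and library 2 of KO PCB-153 has a median of -0.28.

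The fasting list moved with some of these libraries and not with others. Its median deviation was -0.45 in libraries 1 and 2 of WT PCB-153, the livers low in Angptl4, and 0.32 and 0.61 in libraries 3 and 4, the livers high in it. In library 2 of WT vehicle it was 0.063, and in library 2 of KO vehicle, where 18 members were highest, it was -0.50. The part of feeding state in the members' spread was not tested.

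Members differed in their spread within groups. The within-group SD on the log2 scale was 0.79 for Angptl4, 0.77 for Pdk4, 0.71 for Acot3 and 0.69 for Vnn1, at or above the 95.4th percentile of all genes tested. Fgf21 had 1.13. Hadh, Acadm, Acaa2, Cpt2, Bdh1 and Acadl varied least, at 0.15 to 0.17, and Crat stood at 0.20. The median of the members tested was 0.282 and that of all genes 0.275.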

How the data were processed

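The 20 polyadenylated RNA libraries of liver were used, and spleen libraries were not used here. Per the labels, RNA was extracted with Trizol for Illumina TruSeq libraries. A stranded kit and another TruSeq kit are both named, so the strand setting used in counting is unknown here. Tools listed in the submitters' processing notes are STAR 2.6.0, FastQC, DESeq2 (version written as 3.8) and featureCounts, with the build mm10.

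The authors deposited a signal table of reads divided by 1 size factor per library. All values above 0 (100%) were whole multiples of 1 step per library within 0.05 reads, so reads were recovered by division. The authors also deposited comparison tables with log2 fold changes and p-values.

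Genes with a mean of at least 10 entered limma 3.58.1 (R 4.3.3; lmFit, contrasts.fit, eBayes with trend) as log2(value + 1), in 1 fit of the 4 groups, two-sided. p-values were Benjamini-Hochberg adjusted over all genes tested in each of 7 contrasts, and a gene is called at an adjusted p under 0.05. Fold changes on this scale understate the change of low genes. The fit was tested on simulated reads for KO PCB-153 against WT PCB-153 only. Its recovery of small changes is not reported here, so a member that was not called may still differ. Alternatives were edgeR 4.0.16 and DESeq2 1.42.0 on the recovered reads, a replicate block, each library left out, pseudocounts of 0.5 and 5, no filter or a mean of at least 50, fits of 2 groups only, and quantile normalisation.

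The members and gene lists were chosen with earlier results of these data known. All members are accounted for. Values per library are given for members called in any contrast and, where a contrast calls none, for the 3 with the smallest p, and Pdk4 and the ranges of other members were added after their values were seen. Of other lists, up to 4 called genes per list and contrast are named, with Ppara, Nr1i2, Cyp4a10 and Cyp4a14 always; some genes are not reported here. Positions are from GENCODE M21 and promoters from RefSeq, both on GRCm38, matched by symbol.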

Additional observations from a re-analysis of the deposited data

Results flagged for a closer look

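Each of the 33 members was looked at in each group for a library far from the other 4, which flags about 1 in 20 groups by chance, and 5 of 132 groups were flagged. Pdk4 stood at 1122 normalised reads in library 3 of KO PCB-153, a gap of 0.93 of the group's range. Crat stood at 711 in library 2 of WT vehicle, with a gap of 0.86 of the range, and Vnn1 at 1027 and Fgf21 at 50.4 in the same library, with gaps of 0.80 and 0.77. Acaa2 stood at 10046 in library 1 of WT vehicle, below the other 4, with a gap of 0.75. Library 2 of WT vehicle, highest of its group for 29 of 33 members, thus holds 3 of the 5.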

How the results depend on the processing

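The Crat calls in PCB-153 livers and over both exposures and the Fabp1 call over both exposures held under every alternative run. Their adjusted p-values in limma, edgeR or DESeq2 were at most 0.00476, 0.00316 and 0.0243. Signs were compared only for genes called in a contrast or with a small p there, and none of those log2 fold changes changed sign. The other members were not compared in this way, and fold changes near 0 may change sign. The number of members called in PCB-153 livers, 2, became 1 with no filter, 4 with quantile normalisation and 5 with DESeq2, and ran from 1 to 4 with single libraries left out, while the genes called in all, 234, became 212, 254 and 380 and ran from 124 to 334. Over both exposures the 4 calls became 2 with no filter, 2 with edgeR and 8 with DESeq2, and ran from 2 to 7 with single libraries left out, while all genes called, 737, became 578, 751 and 1192 and ran from 467 to 1227. In vehicle livers a fit of the 2 groups alone called 1 member, Angptl4, in place of 0, and 67 genes in place of 98, which ran from 49 to 146 with single libraries left out. The cause was not tested. The median log2 fold change of the members moved by less than a median of single-gene standard errors in all 160 comparisons with an alternative. That margin is wide for a median over many genes and does not show that the median was stable. In PCB-153 livers the median changed sign, from -0.11 to 0.10 with single libraries left out.

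Groups share replicate numbers in the labels. Same-numbered libraries did not deviate together throughout: 10 of 30 pairs across groups correlated above 0.1, the median was 0.03 against -0.009 for other pairs, and 3 of 20 libraries correlated best with their own number. Between KO vehicle and WT vehicle all 5 pairs were positive, at 0.039 to 0.268, with 4 above 0.1, a hint from the data and not the design. With the replicate number as a block, the 2 members called in PCB-153 livers were Crat and Fabp1 (limma adjusted p = 0.046), Acot3 being lost (0.0596), and over both exposures Acot3 (0.0554) and Creb3l3 (0.057) were lost, leaving 2, with 0 in the other comparisons. The depth of 15.23 to 28.65 M reads limits Fgf21 most, whose lowest library held under 1 normalised read.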
